A study of Mus musculus with 18 samples.

Results

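A list of 5 cell surface genes used to mark mouse hair follicle stem cells was followed through all 9 groups of the series. It held Cd34, Lgr5, Lgr6, Lrig1 and Cd200, taken by name, with earlier results of these data known. All 5 were found among the 27933 gene symbols counted in hair follicle stem cells (HFSC) and the 52958 counted in dermal papilla cells (DP). All 5 also passed the filter on low counts, which left 15231 genes for testing in HFSC and 23463 in DP.

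In mouse skin the resting follicle keeps its stem cells in the bulge, and the DP below sends the signals that set the timing of hair growth. CD34 is a sialomucin of the cell surface that marks the mouse bulge and is commonly used, with the alpha-6 integrin, to sort its cells. LGR5 and LGR6 are receptors for R-spondins, which strengthen WNT signalling. Lgr5 marks the lower bulge and hair germ, and Lgr6 marks cells of the isthmus above the bulge. LRIG1 restrains receptors of the epidermal growth factor family and marks the upper isthmus and the base of the infundibulum. CD200 is a ligand that restrains myeloid cells through the CD200 receptor and is also carried by bulge cells.

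RNA-seq was made from female mice in 2 experiments, with 2 libraries in each group, and both cell types were purified by flow cytometry. In the surgery experiment, wild-type C57BL/6 mice were adrenalectomised and fed corticosterone (ADX+CORT, HFSC libraries), adrenalectomised (ADX) or sham-operated (Sham). Adrenalectomy removes the main source of corticosterone, the glucocorticoid hormone of the mouse. In the deletion experiment, on a 129/C57BL/6 background, Pdgfra-CreER; GR fl/fl mice (GR_KO) were compared with wild-type mice (Control), and both received tamoxifen intraperitoneally for 6 days. The Control mice are labelled wild type, so that the deletion and the presence of Cre cannot be told apart. Pdgfra drives Cre in dermal cells, which include the DP, and not in follicle epithelium. The age of the mice and the surface proteins used for sorting were not given in the sources used here. If CD34 protein was part of the HFSC gate, the cells were selected by the product of the gene measured, which limits what the Cd34 levels in HFSC stand for. Nothing in the labels says whether the 2 libraries of a group came from separate mice, so p-values measure the spread between these libraries only. Strain, tamoxifen and experiment changed together, so fold changes were taken within an experiment, and levels set side by side across experiments are a description.

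Libraries held 14067139 to 33014976 counts in HFSC and 6194415 to 13941628 in DP. Values below are counts-per-million values (CPM) unless said otherwise, and fold changes are log2 values from edgeR's quasi-likelihood test, with the Benjamini-Hochberg method applied to every gene tested and a threshold of 0.05 on the adjusted p. Transcripts of Nr3c1, the gene of the glucocorticoid receptor, stood at 137 and 111 CPM in GR_KO DP, against 671 and 978 CPM in Control DP. The HFSC of the same experiment had 243 and 170 CPM of Nr3c1 in GR_KO and 257 and 338 CPM in Control, a difference that did not pass the test (log2 fold change -0.53 ± 0.24 (SE), edgeR adjusted p = 0.367). The 6 defining HFSC markers Krt5, Krt14, Krt15, Itga6, Sox9 and Lhx2 were detected in all 10 HFSC libraries, and the 6 defining DP markers Corin, Sox2, Alpl, Rspo3, Hhip and Sox18 in all 8 DP libraries. The summed level of an immune cell list of 6 genes was 2070 to 2540 CPM in the HFSC libraries of the deletion experiment and 40.6 to 143 CPM in those of the surgery experiment, a further reason to keep the experiments apart.

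The loci and sequences below show where the counted transcripts lie, what the surface form of CD34 turns on, and how far the promoters differ. On mm10 (GRCm38, GENCODE M21), Cd34 spans chr1:194938819-194961279 on the plus strand. The other members lie on the minus strand, Lgr5 at chr10:115450311-115587780, Lgr6 at chr1:134983301-135105276, Lrig1 at chr6:94604529-94700158 and Cd200 at chr16:45382135-45409053. All are protein-coding genes, and reads were counted over their exons. An exon of Cd34 overlaps the antisense gene Gm16897 and an exon of Lrig1 overlaps Slc25a26. The library chemistry does not mark strand, so reads in those overlaps could belong to either gene.

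A pair of coding transcripts of Cd34 differs in the last exon, which sets how much of the protein lies inside the cell. Cd34-201 has 382 codons and encodes the full cytoplasmic tail. Cd34-202 has 325 codons, because its last exon starts 156 bases earlier and reaches a stop codon after 12 coding bases. In the sequences below, 15 shared bases of the exon before are in lower case and the first 15 bases of each last exon are in capitals.
Cd34-201: acaggagaaaggctgGGTGAAGACCCTTAT
Cd34-202: acaggagaaaggctgGAGCTGGAACCTTGA
The shared bases lie at chr1:194959216-194959230, and the capitals start at chr1:194959936 in Cd34-201 and at chr1:194959780 in Cd34-202.

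Promoters, taken as the 250 bases before the gene start in RefSeq on GRCm38.p6, were found for Cd34, Lgr6, Lrig1 and Cd200 and not for Lgr5. CpG dinucleotides, the sites of DNA methylation, are in capitals in the promoters of Cd34 (chr1:194938571-194938820, plus strand) and Lrig1 (chr6:94700146-94700395, minus strand), shown because they lie at opposite ends of the members' range of CpG numbers.
Cd34 promoter: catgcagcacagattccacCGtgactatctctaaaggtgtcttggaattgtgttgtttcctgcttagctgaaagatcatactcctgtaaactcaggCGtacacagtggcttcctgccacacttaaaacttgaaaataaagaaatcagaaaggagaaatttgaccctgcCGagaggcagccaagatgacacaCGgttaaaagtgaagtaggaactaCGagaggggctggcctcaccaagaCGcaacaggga
Lrig1 promoter: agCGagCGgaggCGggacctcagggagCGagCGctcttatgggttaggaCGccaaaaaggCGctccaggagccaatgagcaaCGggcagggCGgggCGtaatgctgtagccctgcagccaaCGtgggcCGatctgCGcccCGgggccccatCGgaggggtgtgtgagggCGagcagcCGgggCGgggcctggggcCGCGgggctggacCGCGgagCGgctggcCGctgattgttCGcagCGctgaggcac
The Cd34 promoter held 6 CpG and 46.4% G or C, and that of Cd200 held 6 CpG and 42.4%. Lgr6 had 16 CpG and 65.2%, and Lrig1 had 26 CpG and 71.6%. Across 32851 promoters of the same length the medians were 6 CpG and 52.4%, and 91.4% of them had no more CpG than Lrig1. The letters AGAACA, a half-site of the glucocorticoid receptor's element, and CTTTGA, the core bound by TCF and LEF factors, were searched on both strands. Neither was in any of the 4 windows, against shares of 16.1% and 13.8% among all promoters.

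Within HFSC, Cd34 was the most abundant member in 9 of 10 libraries, per length of all annotated exons of the gene. That length was 7290 bases for Cd34, 10264 for Lgr5 and 3321 for Cd200, so the order of the members depends on the annotation. The level of Cd34 in TPM, a scale that divides by length, was 228 to 929. It ranked 129 to 740 among all genes of a library. Cd200 came next at 212 to 419 TPM and exceeded Cd34 in 1 library, GR_KO replicate 1. The R-spondin receptors were lower, with 39.1 to 102 TPM for Lgr5 and 33.2 to 71.8 TPM for Lgr6. Lrig1 had 19.7 to 52.7 TPM and was the lowest member in 8 of 10 libraries. Over these libraries the CPM of Lgr6 varied 1.66-fold between the lowest and the highest, that of Cd34 3.81-fold.

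**Figure D1:**
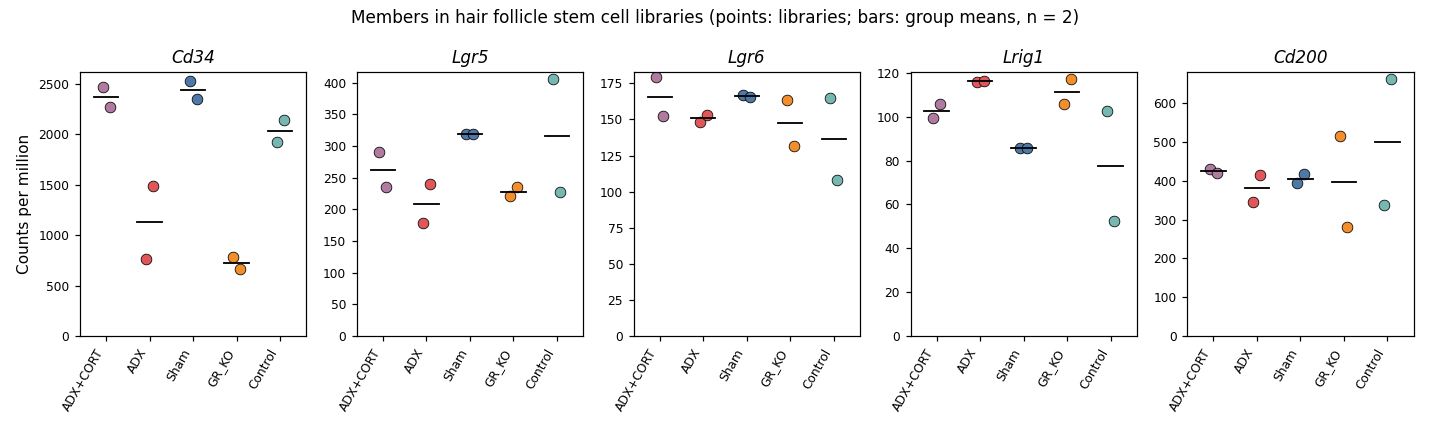
Level of each member in CPM (linear axis) in the 10 HFSC libraries by group; points are libraries and bars are the means of 2. For Cd34 both ADX libraries (767 and 1493 CPM) lie below the Sham libraries (2527 and 2350 CPM), and both GR_KO libraries (784 and 663 CPM) lie below the Control libraries (1924 and 2143 CPM).

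Cd34 levels lay lower in stem cells of adrenalectomised mice than in those of sham-operated mice, a difference that edgeR did not call. Cd34 stood at 767 and 1493 CPM in ADX HFSC, against 2527 and 2350 CPM in Sham HFSC. Both ADX libraries lay below both Sham libraries, but they differed from each other by more than the Sham libraries did. The log2 fold change was -1.11 ± 0.29 (SE), a 2.16-fold lower level, and did not pass the threshold (edgeR adjusted p = 0.101). DESeq2 called it (log2 fold change -1.11, adjusted p = 0.00320). The call also turned on 1 library. Without ADX replicate 2, edgeR gave -1.66 (adjusted p = 0.0215), and without ADX replicate 1 it gave -0.71 (adjusted p = 0.556). None of the 5 members was called by edgeR for ADX against Sham, where 0.295% of all genes were (43 higher and 2 lower). An unadjusted p under 0.05 was found for 2 members and for 2318 of 15231 genes, and DESeq2 called 1 member and 840 genes.

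Lgr5 lay below both Sham libraries in both ADX libraries. It had 178 and 240 CPM in ADX and 319 in each Sham library. Its log2 fold change of -0.61 ± 0.27 (SE) did not pass (edgeR adjusted p = 0.310). Lrig1 lay the other way, at 116 CPM in each ADX library against 85.7 and 86.0 CPM in Sham (log2 fold change 0.44 ± 0.27 (SE), edgeR adjusted p = 0.473). Lgr6 was also lower in both ADX libraries, by a small step, with 148 and 153 CPM in ADX and 167 and 166 CPM in Sham (edgeR adjusted p = 0.845). Cd200 had 345 and 417 CPM in ADX and 395 and 417 CPM in Sham (edgeR adjusted p = 0.943). The groups did not overlap for 4 of the 5 members, but they did not overlap for 49.4% of all genes either.

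Corticosterone feeding after adrenalectomy was compared with adrenalectomy alone and with sham operation, comparisons that share their ADX and Sham libraries with the one above. Cd34 stood at 2469 and 2268 CPM in ADX+CORT, above both ADX libraries at 767 and 1493 CPM. The log2 fold change was 1.07 ± 0.29 (SE), or 2.10-fold, and missed the threshold (edgeR adjusted p = 0.0744), while DESeq2 called it (1.06, adjusted p = 0.00419). This call too depended on the ADX libraries, with edgeR values of 1.61 (adjusted p = 0.0180) without ADX replicate 2 and 0.67 (adjusted p = 0.492) without ADX replicate 1. Against Sham, Cd34 of ADX+CORT libraries had a log2 fold change of -0.04, with a 95% confidence interval of -0.66 to 0.57. Of 5 genes taken to check glucocorticoid signalling, Nr3c1 among them, 5 were lower in ADX than in Sham and none passed. In ADX+CORT, 4 were higher than in ADX and 4 lower than in Sham, and none passed. Among them, Tsc22d3 had 47.9 and 300 CPM in ADX+CORT, 74.5 and 248 CPM in ADX and 273 and 363 CPM in Sham. Fkbp5 had 3.29 and 4.67 CPM in ADX+CORT, 1.97 and 9.36 CPM in ADX and 3.58 and 9.25 CPM in Sham, so that all 3 groups overlapped. No member was called by edgeR in either comparison, and neither was any other gene (0% of genes tested), although a fit of the surgery libraries only, chosen after seeing the data, called 884 genes for ADX+CORT against ADX and none of the members. At an unadjusted p under 0.05 there were 2941 genes for ADX+CORT against ADX and 927 for ADX+CORT against Sham, and DESeq2 called 1326 and 61 genes in the same order.

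Lgr5 of ADX+CORT libraries, at 290 and 236 CPM, overlapped the ADX libraries at 178 and 240 CPM and lay below the Sham libraries at 319 CPM. Its log2 fold change was 0.33 ± 0.27 (SE) against ADX and -0.28 ± 0.27 (SE) against Sham, and neither passed. Lrig1 had 99.6 and 106 CPM in ADX+CORT, below the ADX libraries at 116 CPM and above the Sham libraries at 85.7 and 86.0 CPM. Its intervals against ADX (-0.77 to 0.41) and against Sham (-0.33 to 0.85) both included no change. Lgr6 stood at 179 and 152 CPM and Cd200 at 431 and 420 CPM in ADX+CORT. The log2 fold changes of both genes lay between -0.00 and 0.16 in these comparisons. Against ADX the groups did not overlap for 3 members, and for 52.6% of all genes. Against Sham they did not overlap for 3 members and for 40.7% of all genes.

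In stem cells of GR_KO mice Cd34 fell, and it was the only one of the 5 members that passed the test. Cd34 had 784 and 663 CPM in GR_KO HFSC, against 1924 and 2143 CPM in Control HFSC. Both GR_KO libraries lay far below both Control libraries. The fall was 2.81-fold, a log2 fold change of -1.49 ± 0.29 (SE) with a 95% confidence interval of -2.12 to -0.86 (edgeR adjusted p = 0.0384). Among all genes 0.985% were called in this comparison, and 0.315% were called as lower. DESeq2 also called the fall of Cd34 (log2 fold change -1.48, DESeq2 adjusted p = 1.17e-05), among 721 genes called. In edgeR the call was lost when only these 4 libraries were fitted (edgeR adjusted p = 0.0640). It was also lost without Control replicate 1, without Control replicate 2 or without GR_KO replicate 2 (edgeR adjusted p = 0.0663, 0.187 and 0.121), at log2 fold changes of -1.57, -1.41 and -1.38.

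The other members did not pass in the deletion experiment. Lgr5 had 221 and 236 CPM in GR_KO and 406 and 227 CPM in Control, so that 1 Control library overlapped the GR_KO libraries (log2 fold change -0.47 ± 0.27 (SE), edgeR adjusted p = 0.504). Lrig1 had 106 and 117 CPM in GR_KO and 103 and 52.4 CPM in Control (0.52 ± 0.27 (SE), edgeR adjusted p = 0.451). Lgr6 stood at 163 and 132 CPM in GR_KO, within the Control values of 165 and 108 CPM. Cd200 was spread widely in both groups, with 516 and 280 CPM in GR_KO and 337 and 662 CPM in Control. Lgr5, Lgr6, Lrig1 and Cd200 each differed between the 2 Control libraries by more than 1.5-fold. All HFSC libraries were fitted together, so the SE was not set by the Control libraries alone. It was 0.27 for Lgr5 and Lrig1, 0.24 for Lgr6 and 0.33 for Cd200. At this rounding the same SE values were found for ADX against Sham in HFSC. The GR_KO and Control groups did not overlap for 2 of the 5 members and for 38.5% of all genes.

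The effects of ADX and of GR_KO on HFSC were tested against each other. For Cd34 the difference was 0.38 ± 0.40 (SE) on the log2 scale, with an interval of -0.49 to 1.25 (edgeR adjusted p = 0.791). No member and no other gene passed this test in edgeR (0% of genes). An unadjusted p under 0.05 was found for 1610 genes, and DESeq2 called 108.

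**Figure D2:**
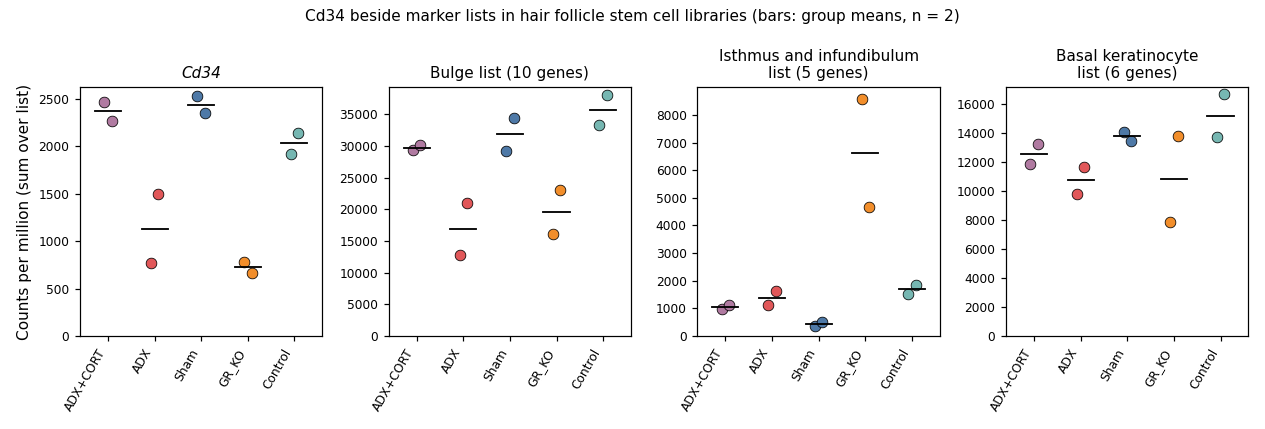
Cd34 and the summed levels of 3 marker lists, in CPM on linear axes, in the 10 HFSC libraries; points are libraries and bars are the means of 2. The bulge list is lower in ADX (12784 to 21037 CPM) than in Sham (29173 to 34465 CPM), and the isthmus and infundibulum list is higher in GR_KO (4665 to 8583 CPM) than in Control (1536 to 1841 CPM).

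Summed bulge markers lay lower in ADX and GR_KO, and some markers of the upper follicle rose there. A bulge list of 10 genes without the members summed to 12784 to 21037 CPM in ADX, against 29173 to 34465 CPM in Sham. In ADX+CORT it summed to 29370 to 30097 CPM. It came to 16133 to 23020 CPM in GR_KO and 33329 to 37957 CPM in Control. Most of this sum is Krt15, a keratin of bulge cells, at 11439 and 19408 CPM in ADX and 26681 and 32586 CPM in Sham. None of the 10 genes passed in any HFSC comparison. The nearest was Fgf18, a growth factor of the resting bulge, for ADX against Sham (log2 fold change -1.66, edgeR adjusted p = 0.0637). Lhx2, a transcription factor of the bulge, had log2 fold changes of -0.94 for ADX and 0.01 for GR_KO, and Nfatc1 had -0.94 for ADX and 0.06 for GR_KO. In GR_KO, 7 of the 10 were lower and the median was -0.15, against a median of 0.00 over all genes tested. A basal keratinocyte list of 6 genes also summed lower in ADX, to 9749 to 11678 CPM against 13448 to 14048 CPM in Sham. All 6 were lower there. In GR_KO this list summed to 7844 to 13762 CPM, overlapping the 13698 to 16682 CPM of Control, with 2 genes higher and 4 lower. None of the 6 was called in either comparison.

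A list of 5 markers of the isthmus and infundibulum lay the other way. In ADX 2 of 5 rose, the defensin gene Defb6 (log2 fold change 2.94, edgeR adjusted p = 0.0193) and the cystatin gene Cst6 (1.93, edgeR adjusted p = 0.0393). In GR_KO 3 of 5 rose, namely Krt79 (2.31, edgeR adjusted p = 0.0367), Defb6 (2.07, edgeR adjusted p = 0.0359) and Cst6 (1.84, edgeR adjusted p = 0.0327). By sign, all 5 were higher in ADX, whereas in GR_KO 4 were higher and 1 was lower. The lower gene was Ly6a, whose GR_KO and Control libraries overlapped. The list summed to 1109 to 1637 CPM in ADX, against 344 to 514 CPM in Sham, and to 4665 to 8583 CPM in GR_KO, against 1536 to 1841 CPM in Control. In ADX+CORT it was at 961 to 1130 CPM, above both Sham libraries and overlapping the ADX libraries. None of the 5 genes passed for ADX+CORT against ADX or against Sham. For Cd34, 1 ADX+CORT library lay between the Sham libraries and the other below them. Lgr6 and Lrig1, the members known from the same upper region, had log2 fold changes of -0.14 and 0.44 in ADX and of 0.11 and 0.52 in GR_KO, none of which passed. In these bulk libraries fewer cells of a type and less RNA per cell cannot be told apart. The part of the marker lists in the Cd34 result was not tested. Vessels and dermal fibroblasts also carry CD34. A list of 7 endothelial genes summed to 24.0 to 25.0 CPM in ADX and 3.94 to 7.63 CPM in Sham, and to 16.8 to 25.4 CPM in GR_KO and 39.2 to 70.1 CPM in Control. In ADX all 7 were higher and none was called. In GR_KO 3 of the 7 were higher and 4 lower, and 1 was called as lower. A list of 7 fibroblast genes summed to 182 to 197 CPM in ADX and 92.1 to 163 CPM in Sham, with 5 of 7 higher and none called. In GR_KO it summed to 54.9 to 77.8 CPM, against 114 to 141 CPM in Control, with all 7 lower, a median of -1.18 and none called. A list of 6 sebaceous gland genes summed to 127 to 152 CPM in ADX, 87.4 to 255 CPM in ADX+CORT and 33.5 to 43.4 CPM in Sham. All 6 were higher in ADX and none passed. The part of these cell types in the Cd34 values was not tested.

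Genes that act with the members were taken as whole lists. Of the list of R-spondin partners (Lgr4, 4 R-spondins, Znrf3 and Rnf43), 6 of 7 were tested in HFSC and none passed in any comparison. Lgr4, another receptor of the family, averaged 117 CPM in ADX and 128 CPM in Sham. Rspo3 had 6.47 and 5.85 CPM in ADX and 0.23 and 1.41 CPM in Sham (log2 fold change 2.91, edgeR adjusted p = 0.251). Rspo2 was detected in 1 of 10 HFSC libraries. Of the list around LRIG1 and its receptor targets, 7 of 8 genes were tested and none passed. Egfr averaged 257 CPM in ADX and 329 CPM in Sham, and 278 CPM in GR_KO and 321 CPM in Control. Lrig3, a relative of Lrig1, had log2 fold changes of -0.58 in ADX and -0.70 in GR_KO (edgeR adjusted p = 0.293 and 0.230). The member of this list nearest to a call was Erbb2 for ADX+CORT against ADX, at 1.23 (edgeR adjusted p = 0.0642). Only 1 of the 4 CD200 receptor genes was tested in HFSC, and the 4 summed to at most 4.87 CPM in any library. Of 7 WNT target genes, 6 were tested in HFSC and none passed. The CD34 relatives Podxl and Podxl2 and the 3 selectin genes had no call.

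In DP, Cd34 rose in GR_KO, where it had fallen in HFSC. Cd200 was the most abundant member per length in 5 of 8 DP libraries and Cd34 in the other 3, including both GR_KO libraries. Lgr5 was the lowest in every DP library, at 0.407 to 8.43 TPM, and rested on 16 to 287 counts. HFSC reads were counted per gene and DP reads estimated per transcript, and the lengths used also differed. Levels and orders of the members are therefore not compared between the cell types.

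**Figure D3:**
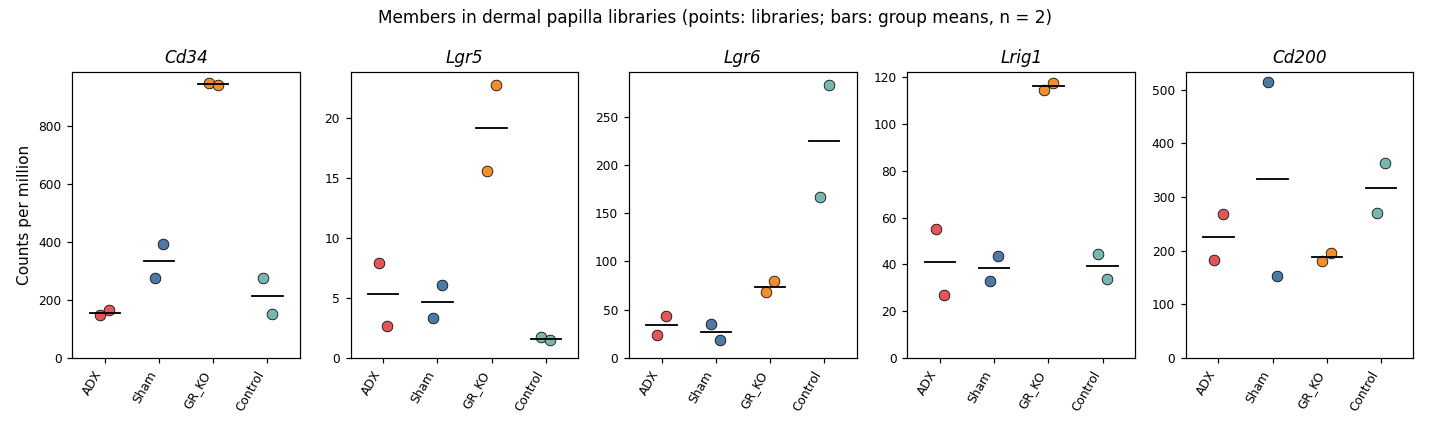
Level of each member in CPM (linear axis) in the 8 DP libraries by group; points are libraries and bars are the means of 2. Cd34 is higher in GR_KO (947 and 943 CPM) than in Control (275 and 153 CPM), and Lgr6 is lower in GR_KO (67.9 and 79.8 CPM) than in Control (166 and 283 CPM).

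Cd34 rose in DP of GR_KO mice. It had 947 and 943 CPM in GR_KO DP, against 275 and 153 CPM in Control DP. The GR_KO libraries nearly coincided and lay far above Control. The rise was 4.42-fold, a log2 fold change of 2.14 ± 0.34 (SE) with a 95% confidence interval of 1.39 to 2.90 (edgeR adjusted p = 0.0272). Of all DP genes 1.54% were called, 0.767% as higher, and the median log2 fold change of all genes tested was 0.17. The call was lost when only these 4 libraries were fitted (2.01, edgeR adjusted p = 0.0704) and without Control replicate 2 (1.59, edgeR adjusted p = 0.213).

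Lgr5, Lrig1 and Lgr6 also separated GR_KO from Control in DP without passing the threshold in edgeR. Lgr5 had 15.6 and 22.8 CPM in GR_KO, against 1.73 and 1.49 CPM in Control (log2 fold change 3.56 ± 0.77 (SE), edgeR adjusted p = 0.0541). Lrig1 had 114 and 118 CPM in GR_KO, against 44.5 and 33.8 CPM in Control (1.57 ± 0.37 (SE), edgeR adjusted p = 0.0704). Lgr6 lay the other way, with 67.9 and 79.8 CPM in GR_KO and 166 and 283 CPM in Control (-1.60 ± 0.41 (SE), edgeR adjusted p = 0.0866). Cd200 had 180 and 195 CPM in GR_KO and 270 and 364 CPM in Control (-0.75 ± 0.48 (SE), edgeR adjusted p = 0.506). DESeq2 called 4 of the 5 members, with adjusted p of 0.000148 for Lgr5, 0.0137 for Lrig1 and 0.00260 for Lgr6, and 1376 genes in all. The groups did not overlap for any of the 5 members, and for 51.6% of all genes they did not overlap either.

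Adrenalectomy had no called member in DP, where 0.017% of all genes were called. Cd34 had 147 and 167 CPM in ADX DP, against 275 and 394 CPM in Sham DP, lower in both libraries. Its log2 fold change of -1.09 ± 0.33 (SE) did not pass (edgeR adjusted p = 0.290). Without the filter on low counts it passed (-1.11, edgeR adjusted p = 0.0178). For the other members the ADX and Sham libraries overlapped. Lgr5 had 7.92 and 2.69 CPM in ADX and 3.31 and 6.04 CPM in Sham, Lgr6 had 24.0 and 43.4 CPM in ADX and 34.7 and 18.8 CPM in Sham, and Lrig1 had 55.3 and 26.7 CPM in ADX and 33.1 and 43.8 CPM in Sham. Cd200 had 182 and 268 CPM in ADX and 515 and 153 CPM in Sham, the widest spread between 2 libraries of a DP group for this gene. Non-overlapping groups, seen for 1 of 5 members, were found for 43.3% of all genes. At an unadjusted p under 0.05 there were 2737 genes and 1 member, and DESeq2 called 470 genes and no member.

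The effect of ADX on Cd34 in DP differed from that of GR_KO. The 2 effects came from experiments that also differed in strain and tamoxifen, and those factors cannot be told apart from the treatments here. The difference was -3.24 ± 0.47 (SE) on the log2 scale, with an interval of -4.29 to -2.18, and passed the test (edgeR adjusted p = 0.0322, 0.477% of genes called, 0.349% as lower). It no longer passed without Sham replicate 2, ADX replicate 2 or Control replicate 2 (edgeR adjusted p = 0.0824, 0.0825 and 0.117). The differences for Lgr5 (-3.38 ± 1.02 (SE), edgeR adjusted p = 0.148), Lgr6 (1.94 ± 0.57 (SE), edgeR adjusted p = 0.142) and Lrig1 (-1.48 ± 0.52 (SE), edgeR adjusted p = 0.207) did not pass. DESeq2 called 3 of the 5 members, Cd34, Lgr5 and Lgr6, and 1051 genes in all.

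**Figure D4:**
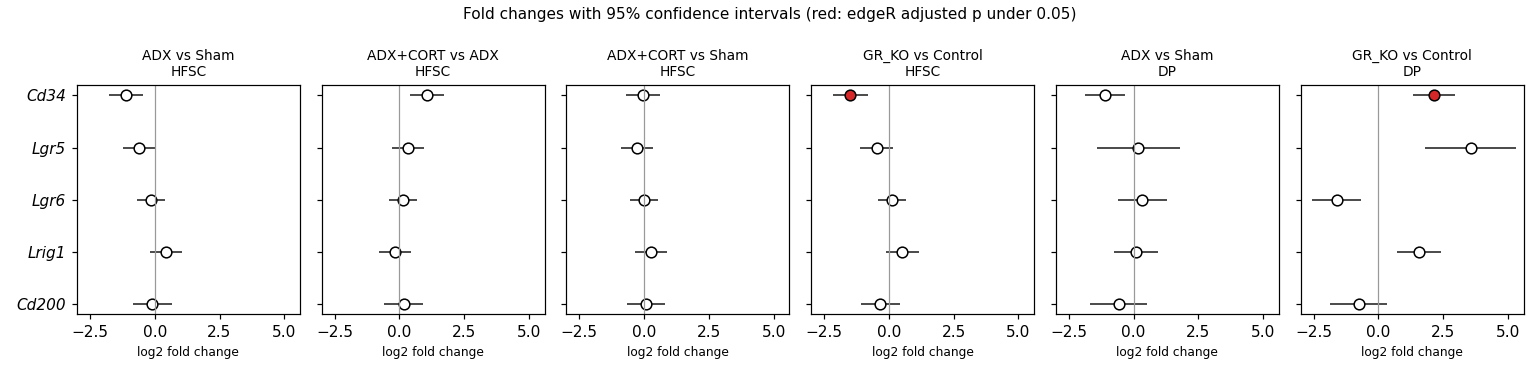
Log2 fold change of each member with its 95% confidence interval in the 6 comparisons, HFSC in the first 4 panels and DP in the last 2; red points passed the edgeR test at an adjusted p under 0.05. Cd34 is the only member with a red point, at -1.49 for GR_KO against Control in HFSC and at 2.14 in DP.

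Of the fibroblast list, 2 of 7 genes rose in GR_KO DP. The list summed to 65071 to 75367 CPM in GR_KO DP, against 15697 to 24605 CPM in Control DP. All 7 were higher, and those that rose were Col3a1 (2.12, edgeR adjusted p = 0.0385) and Col1a2 (2.18, edgeR adjusted p = 0.0463). In ADX DP the same list summed to 20048 to 21335 CPM, against 28160 to 34711 CPM in Sham DP, and all 7 were lower with none called. The list of 11 DP markers summed to 1779 to 2364 CPM in GR_KO and 3409 to 5670 CPM in Control, although 6 of the 11 were higher in GR_KO and 1 rose. The part of fibroblast transcripts in the Cd34 result was not tested. Endothelial genes summed to 68.4 to 158 CPM in GR_KO and 168 to 204 CPM in Control, although 5 of the 7 were higher in GR_KO.

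The immune list summed to 27.7 CPM in 1 GR_KO DP library and 2448 CPM in the other, against 150 to 286 CPM in Control, and its part in the values of the members was not tested. Of the isthmus and infundibulum list, Cst6 fell in GR_KO DP (log2 fold change -6.16, edgeR adjusted p = 0.0344), with 18.8 and 2.14 CPM in GR_KO and 1245 and 251 CPM in Control. The sums of this list overlapped, at 417 to 580 CPM in GR_KO and 440 to 2235 CPM in Control. By sign, 4 of its 5 genes were lower in GR_KO and 1 was higher. The higher gene, Ly6a, had 366 and 573 CPM in GR_KO and 239 and 67.7 CPM in Control. Lgr6, lower in GR_KO too, had 166 CPM in Control replicate 1 and 283 CPM in replicate 2, where Cst6 had 1245 and 251 CPM. The part of epithelial transcripts in the Lgr6 values was not tested. Among R-spondins, made by DP cells, Rspo3 averaged 28.6 CPM in GR_KO and 77.0 CPM in Control (-1.43, edgeR adjusted p = 0.175), and Rspo1 averaged 126 and 97.5 CPM in the same order (0.37, edgeR adjusted p = 0.572). The WNT targets Lef1 (-1.77), Notum (-2.61) and Ccnd1 (1.73) did not pass either (edgeR adjusted p = 0.0712, 0.0718 and 0.0667). In the list around LRIG1, Lrig3 (1.34) and Egfr (0.98) were higher in GR_KO DP without passing (edgeR adjusted p = 0.151 and 0.135).

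Only the DP values list transcripts, and there the full-tail form made up most of Cd34. Cd34-201 held 60.4% to 78.7% of the gene's estimated counts over the 8 libraries. The short-tail form Cd34-202 held 31.5% and 28.1% in GR_KO, against 22.8% and 18.4% in Control. It held 13.6% and 20.1% in ADX, against 33.7% and 22.1% in Sham. In estimated counts Cd34-202 stood at 3670 and 3336 in GR_KO and at 794 and 302 in Control, and Cd34-201 at 7054 and 7394 in GR_KO and at 2560 and 1292 in Control. The shares of Cd34-202 did not overlap within either experiment, lower in ADX and higher in GR_KO. Other Cd34 transcripts separated as well. Cd34-201 held 60.4% and 62.2% in GR_KO, against 73.4% and 78.7% in Control. Cd34-203, annotated for nonsense-mediated decay, held 6.41% and 6.73% in GR_KO, against 2.26% and 1.61% in Control. How often transcripts of other genes separate in this way was not counted. With 2 libraries a group no test of these shares was made. Cd34-204, a transcript with a retained intron, held 18.1% and 9.36% in ADX, against 1.57% and 5.89% in Sham.

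**Figure D5:**
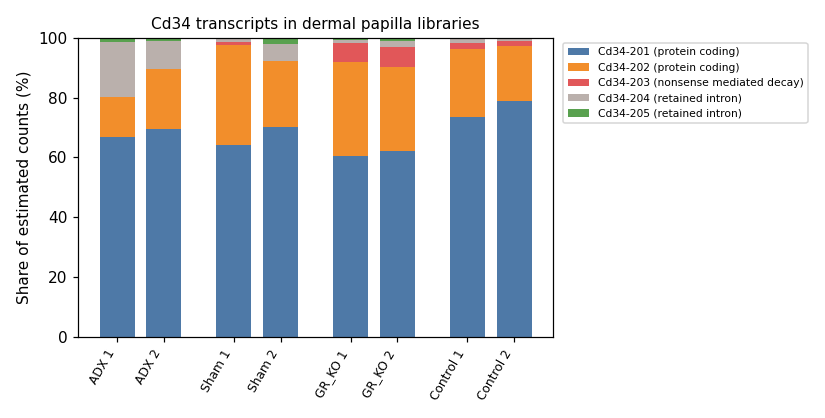
Share of the estimated counts of Cd34, in percent, assigned to each of its 5 annotated transcripts in the 8 DP libraries. The short-tail form Cd34-202 reaches 31.5% and 28.1% in GR_KO against 22.8% and 18.4% in Control, and Cd34-201 is the largest share in every library.

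For the other members, Lgr6-201 (967 codons) held at least 73.2% of the gene's estimated counts in each DP library. The shares of Cd200-201 (269 codons) and Cd200-202 (278 codons) were 33.5% to 57.1% and 18.2% to 38.7%. Lrig1-201 held 83.1% of the gene's estimated counts in Sham replicate 1 and was listed at 0 in the other 7 DP libraries. In those 7, Lrig1-207, a transcript annotated for nonsense-mediated decay, held 68.0% to 90.0%, and it was listed at 0 in Sham replicate 1. Lrig1-201 and Lrig1-207 are 4831 and 4849 bases long and were never both above 0 in a library. Whether the estimates can tell them apart was not tested.

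As a description across both experiments, the order of Cd34 levels over the 5 HFSC groups was Sham, ADX+CORT, Control, ADX and GR_KO, high to low. Sham and ADX+CORT overlapped, as did ADX and GR_KO, and the 2 sets did not overlap each other or Control. For Lgr5, Lgr6 and Cd200 at most 1 pair of neighbours in the order was free of overlap. The genes with the pattern most like Cd34 over the 10 HFSC libraries, by Pearson's r of log2 CPM among 10540 genes, were Duoxa1 (0.989), Tmem184a (0.977) and Ccdc3 (0.977). For Lgr5 they were Lgals4, Specc1l and Pvr, for Lgr6 Foxj3, Scaper and Srgap2, for Lrig1 Cpd, Lamc1 and Trim7, and for Cd200 Ndufb4, Rnaset2b and Pitpna. Over the 8 DP libraries Cd34 was most like Medag (0.995), Ranbp6 (0.993) and Hcfc2 (0.989) among 11642 genes. Between members, r was 0.62 for Cd34 with Lgr5 and -0.74 for Lrig1 with Cd200 in HFSC, and 0.85 for Cd34 with Lrig1 and 0.88 for Lgr5 with Lrig1 in DP. These values describe libraries that share groups, depth and experiment.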

How the data were processed

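The 10 HFSC files hold counts: whole numbers of reads per gene, which the authors obtained with featureCounts 1.6.1 and a mapping quality of at least 30 per the file headers. The 8 DP files hold estimated counts for each transcript, as the authors deposited them from Salmon, per the submitters' processing notes. Those notes also list Trim Galore 0.4.1, STAR 2.5.3, DESeq2 1.22.2 and mm10. SMART-Seq v4 cDNA went into Nextera XT libraries, per the labels' protocols.

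The 134967 DP transcripts were summed to 52958 symbols through GENCODE M21 and rounded; 150 without a match held at most 0.0752% of a library. In 2 HFSC files 27 gene names that had become dates were restored from coordinates. Each cell type was fitted as a whole in edgeR 4.0.16 (R 4.3.3) with 1 mean per group, using TMM, filterByExpr and the quasi-likelihood test. SE values come from the F statistic. The biological coefficient of variation was 38.7% in HFSC and 54.0% in DP, on 5 and 4 residual degrees of freedom. Replicates agreed less closely than counting noise alone would give, so none was merged. TPM values were computed from counts and exon or transcript lengths. The fit was tested on simulated data.

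Named genes were the 5 members, up to 4 called genes of a list with the smallest p (or up to 2 where none passed), and the 3 most alike genes per member above 5 CPM; other list genes were named after their values were seen. The members and the 19 lists were chosen with earlier results of these data known. Alternatives were median-of-ratios scaling, DESeq2 1.42.0, every gene with a count, fits of only the groups compared or only the surgery libraries, a block for the replicate number, and omission of each library in turn. Reads have no molecular identifiers.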

Additional observations from a re-analysis of the deposited data

Results flagged for a closer look

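The effects of ADX and GR_KO on Cd34 in DP differed by -3.24 on the log2 scale, the only such difference among the members that passed in edgeR (adjusted p = 0.0322). Cd34 lay lower in both ADX DP libraries than in both Sham DP libraries (-1.09, not called) and higher in both GR_KO DP libraries than in both Control DP libraries (2.14). The experiments also differed in strain and tamoxifen, which cannot be told apart from the treatments here.

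Within the deletion experiment, Cd34 moved in opposite directions in the 2 cell types, by -1.49 in HFSC and by 2.14 in DP. That difference was not tested, because HFSC reads were counted per gene and DP reads estimated per transcript.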

How the results depend on the processing

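Over 410 member values under alternative settings, 361 kept their direction and side of the threshold, 16 passed newly, 9 no longer passed and 24 changed sign, all of the last when a library was left out. Groups of 2 set the limit.

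DESeq2 called 1 member for ADX against Sham and 1 for ADX+CORT against ADX in HFSC (Cd34: -1.11 and 1.06), 4 for GR_KO against Control in DP (Lgr5 3.47, Lgr6 -1.70, Lrig1 1.47) and 3 for the difference of effects in DP (Lgr5 -3.20, Lgr6 2.09). Without the filter on low counts 1 member was called for ADX in HFSC (Cd34 -1.11), 1 for ADX+CORT against ADX (Cd34 1.07), 1 for ADX in DP (Cd34 -1.11), 4 for GR_KO in DP (Lgr5 3.39, Lgr6 -1.77, Lrig1 1.40) and 2 for the difference in DP (Lgr6 2.07). For GR_KO in HFSC, DESeq2 kept the 1 call (Cd34 -1.48), whereas fitting only the groups compared left 0 (Cd34 -1.49). In DP that fit also left 0 (Cd34 2.01). The cause was not tested.

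With each library left out in turn, where the lone library of a group is assumed to vary like the other groups, members called ranged over 0 to 1 in 5 of 8 tests (ADX and GR_KO in HFSC, ADX+CORT against ADX, GR_KO and the difference in DP). Cd34 ranged over -1.66 to -0.71 for ADX in HFSC, 0.67 to 1.61 for ADX+CORT against ADX, -0.10 to 0.012 for ADX+CORT against Sham, -1.62 to -1.38 for GR_KO in HFSC, 1.59 to 2.48 for GR_KO in DP, -3.56 to -2.68 for the difference in DP and -0.16 to 0.78 for that in HFSC. Other ranges that crossed 0 were, for ADX in HFSC, Cd200 -0.22 to 0.037; for ADX+CORT against Sham, Lgr6 -0.13 to 0.082; for GR_KO in HFSC, Lgr5 -0.83 to 0.0037, Lgr6 -0.16 to 0.45 and Cd200 -0.84 to 0.24; for ADX in DP, Lgr5 -0.84 to 0.82, Lgr6 -0.11 to 0.80, Lrig1 -0.58 to 0.58 and Cd200 -1.24 to 0.52; for the difference in HFSC, Lgr5 -0.62 to 0.23, Lgr6 -0.59 to 0.034, Lrig1 -0.65 to 0.34 and Cd200 -0.32 to 0.74; and for the difference in DP, Cd200 -0.37 to 1.26.

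Genes called over all alternatives ranged over 0 to 888 for ADX in HFSC (45 as reported), 0 to 1326 for ADX+CORT against ADX (0), 0 to 184 for ADX+CORT against Sham (0), 5 to 840 for GR_KO in HFSC (150), 0 to 894 for ADX in DP (4), 19 to 1456 for GR_KO in DP (361), 0 to 256 for the difference in HFSC (0) and 3 to 1305 for that in DP (112).

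Deviations of same-numbered libraries from their group means correlated at -0.15 to 0.22, so the numbers were not taken to pair them. The replicate block changed no member's call, with Cd34 at -1.48 (edgeR adjusted p = 0.0443) for GR_KO in HFSC and 2.15 (edgeR adjusted p = 0.0240) in DP. It moved the genes called to 9 for ADX in HFSC, 10 for ADX in DP and 196 for the difference in DP. Crossed numbers, chosen after seeing the data because that correlation was -0.15 for ADX in DP, left 4 genes and 0 members called there. Fitting the surgery libraries only, also chosen after seeing the data for both ADX+CORT comparisons, changed no member's call, with Cd34 at 1.07 for ADX+CORT against ADX (edgeR adjusted p = 0.0519), but moved the genes called there to 884, and those for ADX in HFSC to 146.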
